A study of Arabidopsis thaliana with 6 samples.

Results

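The 32 genes described here encode arabinogalactan proteins (AGPs) and fasciclin-like arabinogalactan proteins (FLAs) of Arabidopsis thaliana, out of 27655 gene loci in the tables. They were chosen by family, from a list of locus identifiers drawn up with the counts, TPM and ratios of the same 2 libraries already known, so their values are a description and carry no test. By structure they comprise 9 classical AGPs, 2 lysine-rich AGPs, 10 arabinogalactan (AG) peptides, the chimeric protein AGP31 and 10 FLAs. The study profiled mature rosette leaves, leaves 5 and 6 without visible yellowing, of plants labelled jmj16 and of wild type Col-0. The jmj16 plants carry the insertion allele jmj16-1 (SAIL_535_F09) in the Col-0 background and the wild type plants carry no insertion. Both spent 6 days on MS plates before transfer to soil, under a 16 h light and 8 h dark cycle at 22 °C, and the labels give their age both as 4 and as 5 weeks. RNA-seq gave 1 library of each genotype, which leaves every difference without a replicate check, and the 4 chromatin immunoprecipitation samples of the series were not analysed here.

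AGPs are glycoproteins of the plasma membrane and the cell wall whose proline residues are hydroxylated and then decorated with large branched chains of galactose and arabinose. Many are held at the cell surface by a glycosylphosphatidylinositol (GPI) anchor. Classical AGPs have a protein backbone made mostly of proline, alanine, serine and threonine, AG peptides have a very short backbone of the same kind, and FLAs add fasciclin domains, which in animals mediate cell adhesion. The families are known for roles in cell expansion, pollen and seed development and wall assembly.

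The jmj16-labelled library held 13844284 estimated counts and the wild type library 10643186. JMJ16 itself (AT1G08620, named PKDM7D in the reference), a demethylase of lysine 4 of histone H3, had 168 counts in the jmj16-labelled library and 188 in wild type, a log2 ratio of -0.63 (95% counting interval -0.94 to -0.33). Its transcript of 4422 nt is long, and after subtraction of the length trend described further on the log2 ratio was 0.37, so the direction turns with the correction. Its count therefore does not check the label. Among tissue markers, the 5 of mesophyll summed to 16033 TPM in the jmj16-labelled library and 23521 TPM in wild type, with none at 0. The 5 root markers summed to 0.185 TPM in the jmj16-labelled library and 0.475 TPM in wild type, and 0 of them were measured. Of 6 markers of the shoot apex and dividing cells only CDKB2;1 was measured, with 12 reads in the jmj16-labelled library and 9 in wild type. Over the 17151 measured genes of the tables, longer transcripts had lower log2 ratios (Spearman rho -0.43 across genes, which are not independent replicates), and many members are short.

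The 32 genes did not move in 1 direction: as many were called higher as lower in the jmj16-labelled library. Reads were found for 30 of them in the jmj16-labelled library and for 31 in wild type. With at least 20 reads over both libraries, 21 counted as measured and 11 did not. The call of a measured gene as higher or lower in the jmj16-labelled library needs a difference of at least 2-fold and a counting interval that does not include equal levels. AGP1, AGP5 and FLA7 were called higher, 3 of 21 or 14.3%, against 7.22% of all measured genes. AGP26, AGP31 and FLA2 were called lower, also 14.3%, against 10.6% of all measured genes. With so few members, these shares do not set the families apart. AGP5, AGP26, FLA2 and FLA7 reached 20 reads only through the library in which they are high. The median log2 ratio of the 21 was -0.47, against 0.02 over all measured genes. The binomial interval of this median, -0.89 to 0.60, runs over genes, which are not independent replicates, and is no test. Over the members with at least 100 reads the median was 0.50. After subtraction of the length trend described further on, the median of the 21 was -0.71, against 0.01 over all measured genes.

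Most of the AGP and FLA message in these leaves came from a handful of genes. Summed over the 32 genes, the level was 283 TPM in the jmj16-labelled library and 225 TPM in wild type. AGP15 alone made up 50.8% of that sum in the jmj16-labelled library and 40.2% in wild type. Without it the sums were 139 and 134 TPM, so the higher total was carried by AGP15. The AG peptides AGP15, AGP16 and AGP20 together held 67.7% of the summed TPM in the jmj16-labelled library and 54.6% in wild type. FLA8, FLA9 and FLA13 together held 12.6% in the jmj16-labelled library and 22.8% in wild type. These sums and shares are not corrected for the length trend of the log2 ratios given further on. At the lengths of AGP15, AGP16 and AGP20 that trend stood at 0.28, 0.37 and 0.34. At those of FLA8, FLA9 and FLA13 it stood at 0.003, 0.24 and 0.22. At the other end, 12 genes were under 1 TPM in the jmj16-labelled library and 10 in wild type.

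**Figure D1:**
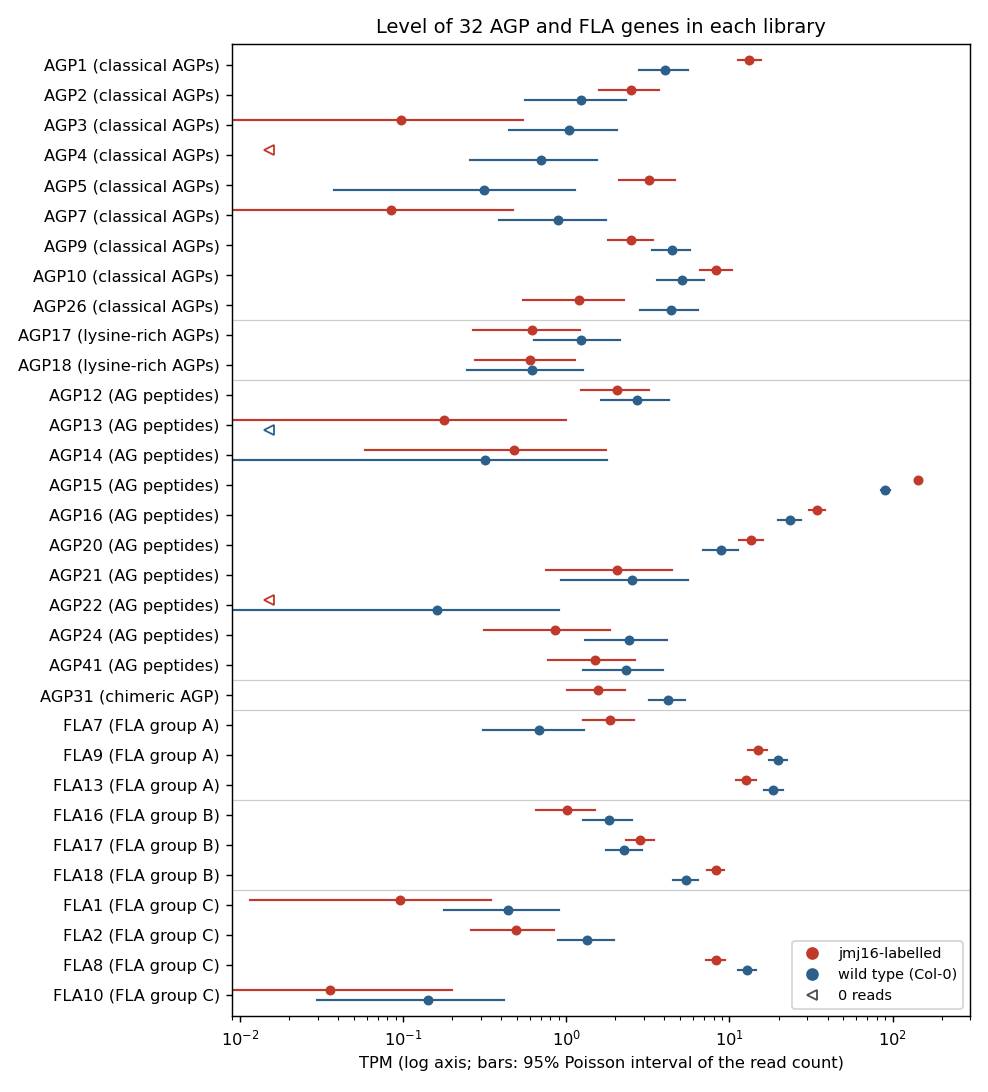
Level of each of the 32 genes in TPM (log axis), with the jmj16-labelled library in red above the wild type library in blue, bars for the 95% Poisson interval of the read count and open triangles where a library had 0 reads. AGP15 stood above all others in both libraries, at 144 TPM in the jmj16-labelled library and 90.3 TPM in wild type.

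Among the classical AGPs, AGP1 and AGP5 were higher and AGP26 was lower in the jmj16-labelled library. AGP1 (AT5G64310) had 152 reads in the jmj16-labelled library (95% Poisson interval 129 to 178) and 35 in wild type (24.4 to 48.7), or 13.2 and 4.03 TPM. The log2 ratio of AGP1 was 1.63 (1.11 to 2.22), 3.10-fold higher. AGP1 was the classical AGP with most reads in the jmj16-labelled library, and its intervals in the 2 libraries lie far apart. AGP5 (AT1G35230) had 27 reads in the jmj16-labelled library and 2 in wild type, or 3.21 and 0.314 TPM, 7.93-fold higher (2.45 to 84.5). AGP26 (AT2G47930) had 9 reads in the jmj16-labelled library and 25 in wild type, or 1.19 and 4.38 TPM. It was 3.72-fold lower, with an interval of 1.74 to 9.38. The reference places another gene over 61.1% of AGP26, but that gene had 0 reads in both libraries.

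The other classical AGPs did not reach the 2-fold rule or were barely read. AGP9 (AT2G14890) had 41 reads in the jmj16-labelled library and 55 in wild type, a log2 ratio of -0.89 (-1.52 to -0.29). AGP10 (AT4G09030) had 79.7 estimated reads in the jmj16-labelled library and 37.0 in wild type, a log2 ratio of 0.63 (0.06 to 1.24). These values of AGP10 are uncertain, because an overlapping gene, AT4G09035, took 53.3 estimated reads in the jmj16-labelled library and 13.03 in wild type and the strand setting is not given in the sources used here. AGP2 (AT2G22470) had 24 reads in the jmj16-labelled library and 9 in wild type, with an interval from -0.21 to 2.23 on the log2 scale that includes no difference. AGP3 (AT4G40090) and AGP7 (AT5G65390) each had 1 read in the jmj16-labelled library and 8 in wild type, a 7.86-fold lower ratio with an interval of 1.49 to 492. AGP4 (AT5G10430), known as JAGGER and needed to keep further pollen tubes out of a fertilised ovule, had 0 reads in the jmj16-labelled library and 6.37 in wild type. The counting interval of its log2 ratio lay below -0.71, and another gene, AT5G10435, with 1 and 2.63 reads, covers 60.1% of AGP4. AGP3, AGP4 and AGP7 therefore lie on the same side, at levels of about 1 TPM or less, and none of them was measured by the 20-read minimum. Their counts are uncertain in addition because close paralogs such as AGP4 and AGP7 can share reads.

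Neither lysine-rich AGP differed detectably at this depth. AGP17 (AT2G23130), whose loss makes roots resistant to Agrobacterium, had 8 reads in the jmj16-labelled library and 12 in wild type, exactly the minimum of 20 in all. Its log2 ratio was -1.03 with an interval of -2.55 to 0.36. AGP18 (AT4G37450), which acts in the selection of the functional megaspore, had 9 reads in the jmj16-labelled library and 7 in wild type (log2 ratio -0.13, -1.70 to 1.55).

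The AG peptides held the most abundant transcripts of the families. None of the 5 measured ones was called higher or lower, against 7.22% and 10.6% of all measured genes. So few genes do not set the AG peptides apart. AGP15 (AT5G11740) had 1862 reads in the jmj16-labelled library (1778 to 1949) and 884 in wild type (827 to 944), or 144 and 90.3 TPM. On the log2 scale AGP15 stood at 0.60 (0.49 to 0.72), 1.52-fold higher. AGP16 (AT2G46330) had 299 reads in the jmj16-labelled library and 156 in wild type, or 34.4 and 23.4 TPM, a log2 ratio of 0.46 (0.18 to 0.76). An overlapping gene, AT2G46320, covers 20.7% of AGP16 and had 232 estimated reads in the jmj16-labelled library and 140 in wild type. The values of AGP16 are therefore uncertain too. AGP20 (AT3G61640) had 137 reads in the jmj16-labelled library and 68 in wild type, or 13.6 and 8.90 TPM, a log2 ratio of 0.53 (0.11 to 0.98). These 3 genes shared a difference of about the same size and their intervals all lie above 0 before the correction for length given further on.

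The other AG peptides had intervals that include 0 or too few reads to be measured. AGP12 (AT3G13520) had 19 reads in the jmj16-labelled library and 19 in wild type, which after scaling is a log2 ratio of -0.47 (-1.47 to 0.53). AGP41 (AT5G24105) had 12 reads in the jmj16-labelled library and 14 in wild type (log2 ratio -0.69, -1.94 to 0.53). AGP24 (AT5G40730), with 6 reads in the jmj16-labelled library and 13 in wild type, fell 1 read short of the minimum. Its interval ran from -3.27 to -0.09 on the log2 scale. AGP21 (AT1G55330), known from root hair patterning, had 6 reads in the jmj16-labelled library and 5.65 in wild type, and a gene over 85.2% of its length had 0 and 5.35. AGP14 (AT5G56540) had 2 reads in the jmj16-labelled library and 1 in wild type, AGP13 (AT4G26320) had 1 and 0, and AGP22 (AT5G53250) had 0 and 1. The counts of AGP13, AGP14 and AGP22 are too low to tell a difference in either direction.

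Transcript length matters for these short messages in 2 ways. The deposited TPM divides by the transcript length minus 249 nt for 47485 of 48359 transcript models, which leaves 178 nt of the 427 nt of AGP21. Divided by full lengths, AGP21 would stand at 1.27 TPM in the jmj16-labelled library and 1.59 TPM in wild type in place of 2.05 and 2.55. This changes levels between genes and not the ratio of counts between libraries. The ratio is touched by the length trend, since genes with transcripts of up to 848 nt had a median log2 ratio of 0.38 and those of 848 to 1065 nt of 0.33. The AG peptides, from 427 to 1034 nt long, lie in these classes. After subtraction of the trend (lowess, span 0.3) the log2 ratio was 0.32 for AGP15, 0.10 for AGP16 and 0.20 for AGP20. The interval of AGP15 then ran from 0.21 to 0.44, while those of AGP16 (-0.19 to 0.39) and AGP20 (-0.23 to 0.64) included 0. With this correction AGP1, AGP5 and FLA7 remained called higher, against 6.23% of all measured genes. AGP26, AGP31 and FLA2 remained called lower and AGP9 joined them at -1.10, against 6.69% of all measured genes.

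**Figure D2:**
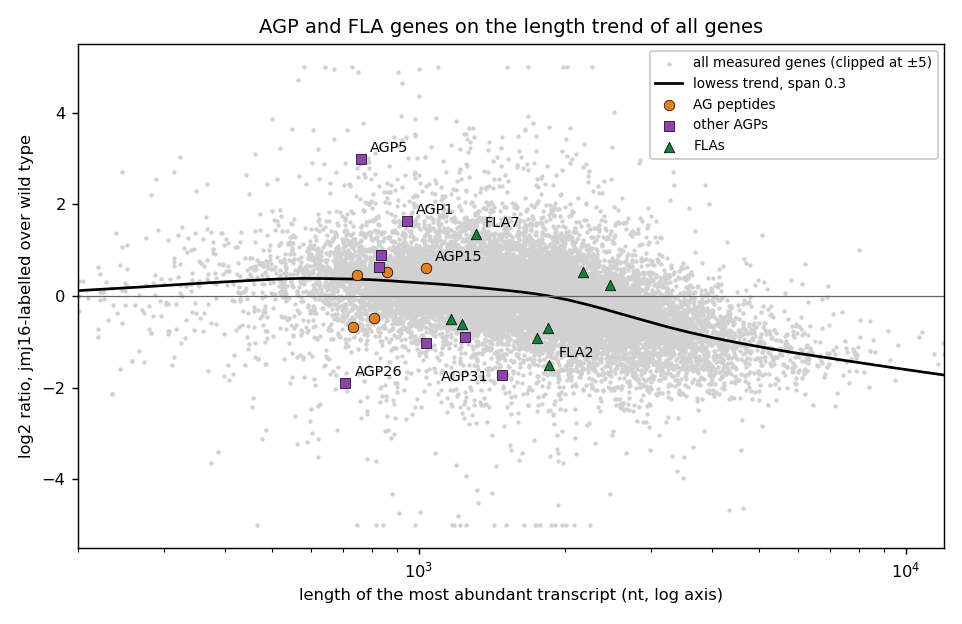
Log2 ratio, jmj16-labelled library over wild type, plotted against the length in nt of the most abundant transcript (log axis), for all 17151 measured genes (grey) and the 21 measured members (AG peptides as circles, other AGPs as squares, FLAs as triangles), with the lowess trend. AGP15, AGP16 and AGP20 sit close above the trend line, while AGP1, AGP5, AGP26 and AGP31 sit well away from it.

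AGP31, a chimeric AGP with a histidine-rich stretch that binds pectin, was lower. AGP31 (AT1G28290) had 26 reads in the jmj16-labelled library (16.98 to 38.1) and 63 in wild type (48.4 to 80.6), or 1.56 and 4.19 TPM. On the log2 scale AGP31 stood at -1.73 (-2.47 to -1.07), 3.32-fold lower, and of the called members it alone was lower with an interval wholly beyond 2-fold. The estimated reads were divided differently between its transcript models. AT1G28290.1, of 1482 nt, held 32.04% of them in the jmj16-labelled library and 92.6% in wild type. AT1G28290.2, of 1186 nt, held the rest, 17.7 reads in the jmj16-labelled library and 4.68 in wild type. From the first model alone the log2 ratio of AGP31 was -3.25. The division of so few reads among overlapping models is an estimate.

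The 10 FLAs summed to 50.4 TPM in the jmj16-labelled library and 63.4 TPM in wild type, and 8 of them were measured. FLA9 (AT1G03870), of the group with a single fasciclin domain, had 224 reads in the jmj16-labelled library and 227 in wild type, or 14.9 and 19.9 TPM. Its log2 ratio was -0.49 (-0.76 to -0.22). FLA13 (AT5G44130), of the same group, had 204 reads in the jmj16-labelled library and 226 in wild type, or 12.7 and 18.6 TPM, a log2 ratio of -0.62 (-0.90 to -0.34). FLA8 (AT2G45470) had 217 reads in the jmj16-labelled library and 255 in wild type, or 8.25 and 12.8 TPM, a log2 ratio of -0.70 (-0.97 to -0.44). The 3 most abundant FLAs of wild type were thus each lower by less than 2-fold, with intervals below 0. The 5 mesophyll markers had log2 ratios from -0.89 (RCA) to -0.47, with RBCS1A at -0.57. The 3 phloem markers had log2 ratios from -0.66 to -0.47, with SUC2 at -0.47 and APL at -0.60. None of the mesophyll or phloem markers was called, against 7.22% of all measured genes called higher and 10.6% lower. After length correction RBCS1A stood at -0.85, RCA at -0.86, CAB2 at -0.75, LHCB2.1 at -0.63 and GLDP1 at -0.07 in place of -0.87. The phloem markers APL, SUC2 and SEOR1 then stood at -0.73, -0.37 and -0.24. FLA8, FLA9 and FLA13 stood at -0.71, -0.73 and -0.84. The part of mesophyll or phloem cells in the FLA values was not tested. In bulk leaf RNA, fewer cells of a type and less RNA per cell cannot be told apart.

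FLA7 and FLA2 passed the rule on few reads. FLA7 (AT2G04780), in the single-domain group, had 33 reads in the jmj16-labelled library and 9 in wild type, or 1.85 and 0.680 TPM. It was 2.54-fold higher, with an interval of 1.24 to 6.28. FLA2 (AT4G12730), of the group of FLA1, FLA8 and FLA10, had 13 reads in the jmj16-labelled library and 27 in wild type, or 0.492 and 1.35 TPM. It was 2.82-fold lower, with an interval of 1.44 to 6.08. Both fell short of the rule when log2(TPM + 1) replaced scaled counts, and FLA7 also with an added count of 5.

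The FLAs that carry a pair of fasciclin domains and no GPI anchor differed among themselves. FLA18 (AT3G11700) had 261 reads in the jmj16-labelled library and 130 in wild type, or 8.24 and 5.42 TPM, a log2 ratio of 0.53 (0.22 to 0.85). FLA17 (AT5G06390) had 104 reads in the jmj16-labelled library and 63 in wild type (log2 ratio 0.25, -0.21 to 0.73). FLA16 (AT2G35860), which acts in cellulose-rich walls of the stem, had 25 reads in the jmj16-labelled library and 34 in wild type (log2 ratio -0.91, -1.72 to -0.13). A long noncoding RNA gene covers 56.7% of FLA16, and its reads were not analysed here. FLA18 and FLA17 have the longest transcripts of the 32 genes, 2172 and 2470 nt, where the trend runs below 0, and their log2 ratios after length correction were 0.69 and 0.57. FLA1 (AT5G55730), which acts in lateral root and shoot development, had 2 reads in the jmj16-labelled library and 7 in wild type. FLA10 (AT3G60900) had 1 read in the jmj16-labelled library and 3.03 in wild type, and the fraction shows reads shared with another transcript.

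**Figure D3:**
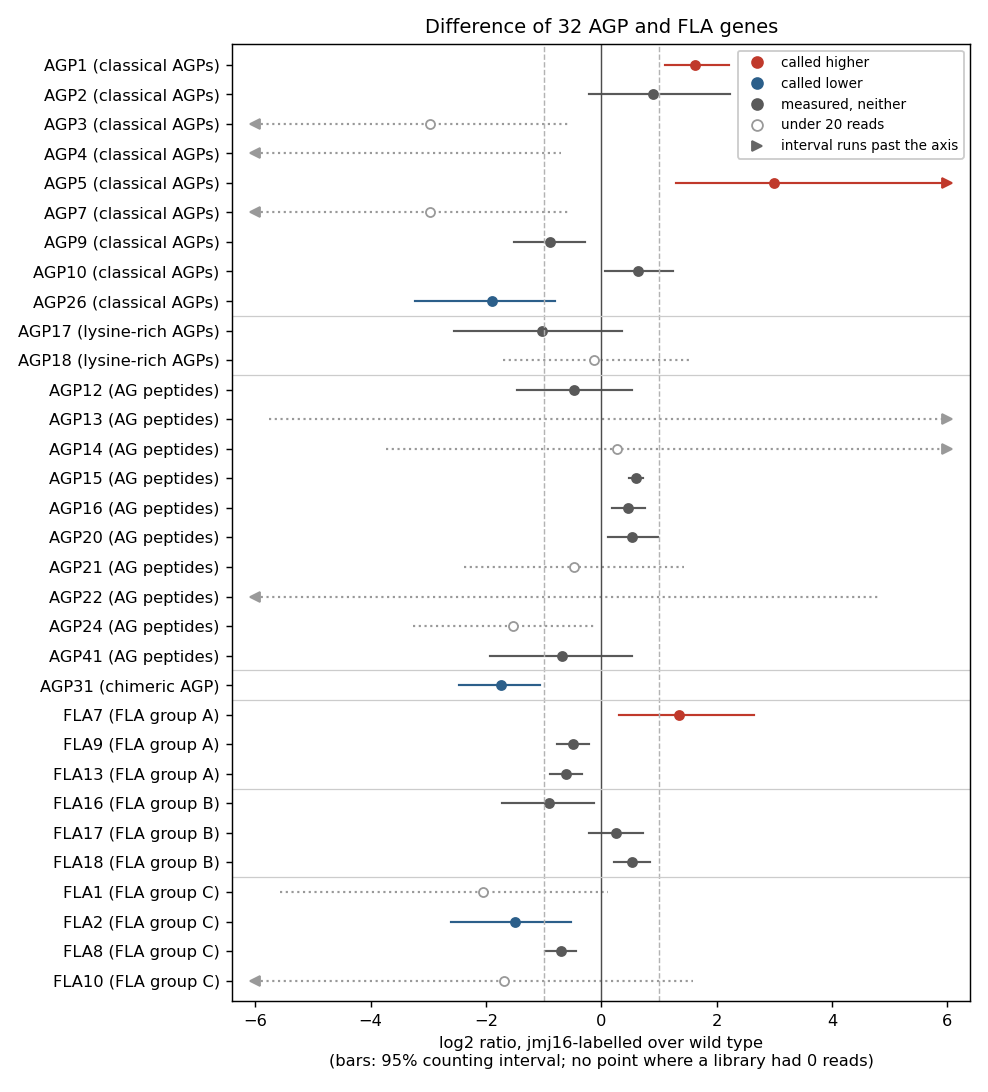
Log2 ratio, jmj16-labelled library over wild type, for the 32 genes, with 95% counting intervals as bars, dashed lines at 2-fold, open points for genes under 20 reads and arrowheads where an interval runs past the axis. AGP1, AGP5 and FLA7 lie to the right, AGP26, AGP31 and FLA2 to the left, and AGP15, AGP16 and AGP20 form a tight group at 0.46 to 0.60.

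Of 18 further AGP and FLA genes outside the 32, 7 were measured, of which 1 was called higher and 3 lower, against 7.22% and 10.6% of all measured genes. FLA11, an FLA of secondary walls in stems and xylem, had 99.7 estimated reads in the jmj16-labelled library and 7 in wild type, or 9.19 and 0.852 TPM. It was 9.66-fold higher (4.82 to 26.3). Xylem markers were higher too: of the 4 measured of 5, 3 were called higher, against 7.22% of all measured genes. Their summed level was 7.80 TPM in the jmj16-labelled library and 2.50 TPM in wild type, and none of the 5 was at 0. CESA8 was 5.34-fold higher (1.55 to 57.7), XCP1 3.47-fold (1.42 to 12.5) and XCP2 3.07-fold (1.93 to 5.29). FLA11 and XCP1 reached 20 reads only through the jmj16-labelled library, in which they are high. CESA8 had exactly the minimum of 20 reads, 18 in the jmj16-labelled library and 2 in wild type. CESA4 was measured but not called (log2 ratio 0.98, 0.13 to 1.97). CESA7 had 7 reads in the jmj16-labelled library and 3 in wild type and was not measured. The part of xylem in the FLA11 and FLA7 values was not tested.

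The 3 further AGPs that were lower are known from pollen. AGP6 had 24 reads in the jmj16-labelled library and 43 in wild type (2.46-fold lower, 1.47 to 4.28), and AGP11 had 10 and 24 (3.24-fold lower, 1.53 to 7.80). The pollen AG peptide AGP23 had 31 reads in the jmj16-labelled library and 46 in wild type (2.05-fold lower, 1.28 to 3.36). FLA3, which acts in the pollen wall, had 0 reads in the jmj16-labelled library and 15.6 in wild type, with a log2 interval that lay below -2.42. Of 7 flower and pollen markers, summed at 2.45 TPM in the jmj16-labelled library and 9.36 TPM in wild type, 3 were measured. Of these, 2 were called lower, against 10.6% of all measured genes. SEP1 had 2.06 reads in the jmj16-labelled library and 34.5 in wild type (19.7-fold lower, 6.23 to 208), and the pollen pectin esterase gene VGD1 had 50.3 and 137 (3.78-fold lower, 2.73 to 5.36). AG, also measured, had 12 reads in the jmj16-labelled library and 17 in wild type and was not called (log2 ratio -0.96, -2.17 to 0.18). PI had 2 reads in the jmj16-labelled library and 3 in wild type and AP3 had 2 and 1, too few to be measured. AP1 and MGH3 were at 0 in the jmj16-labelled library and MGH3 in wild type. AGP11 and SEP1 reached 20 reads only through the wild type library, in which they are high. The seed storage gene CRA1 had 0 reads in the jmj16-labelled library and 23 in wild type, with a log2 interval below -2.99. It too reached 20 reads only through the wild type library. The seed markers CRU3 and OLEO1 were at 0 in both libraries. The part of flower, pollen or seed material in the AGP values, AGP4 included, was not tested.

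Of 12 genes that build the arabinogalactan chains 10 were measured. Of these, 2 were called higher and 1 lower, against 7.22% and 10.6% of all measured genes. Their median log2 ratio was 0.36. Its binomial interval, -0.42 to 1.02, runs over genes, which are not independent replicates, and is no test. FUT4, a fucosyltransferase of AGPs, had 1139 reads in the jmj16-labelled library and 365 in wild type, or 48.0 and 20.1 TPM, and was 2.25-fold higher (1.998 to 2.54). GlcAT14A, which adds glucuronic acid, had 279 reads in the jmj16-labelled library and 99 in wild type and was 2.03-fold higher (1.61 to 2.58). GALT2, which adds the first galactose to hydroxyproline, had 17 reads in the jmj16-labelled library and 36 in wild type. It was 2.89-fold lower (1.61 to 5.57) and reached 20 reads only through the wild type library, in which it is high. After length correction the log2 ratio of GALT2 was -1.08 (-2.03 to -0.23) in place of -1.53. HPGT1, HPGT2, HPGT3, GALT3, GALT4, GALT5 and GALT6 were among the genes left out because the reference lacks their names. The prolyl 4-hydroxylases P4H1, P4H2 and P4H5, which make the hydroxyproline that carries the chains, had 313, 325 and 444 reads in the jmj16-labelled library and 175, 139 and 215 in wild type. Their log2 ratios were 0.37, 0.75 and 0.57. Of 4 GPI anchor genes 3 were measured and 0 called, against 7.22% of all measured genes called higher and 10.6% lower. SETH2 had 143 reads in the jmj16-labelled library and 112 in wild type (log2 ratio -0.12, -0.49 to 0.25), and APTG1 had 143 and 95 (0.12, -0.27 to 0.51).

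Some epidermis and guard cell markers also differed. Of the 6, all measured, 3 were called lower and 0 higher, against 10.6% and 7.22% of all measured genes. Their summed level was 38.8 TPM in the jmj16-labelled library and 54.7 TPM in wild type, with none at 0. PDF1 had 22 reads in the jmj16-labelled library and 57 in wild type (3.54-fold lower, 2.16 to 6.17), FAMA had 110 and 159 (2.002-fold lower, 1.56 to 2.58) and the potassium channel gene KAT1 had 80 and 122 (2.11-fold lower, 1.58 to 2.84). The markers not called were ATML1 (log2 ratio -0.29, -0.53 to -0.04), FDH (-0.45, -0.63 to -0.27) and MYB60 (-0.25, -0.59 to 0.09). KAT1, of 3021 nt, lies in the longest length class, above 2990 nt, where 40.9% of measured genes were called lower. After length correction KAT1 was no longer called, at a log2 ratio of -0.49, and ATML1 stood at 0.32. Called lower then were 2 of the 6, against 6.69% of all measured genes. The part of the epidermis in the lower AGP26, AGP31 and FLA2 was not tested.

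**Figure D4:**
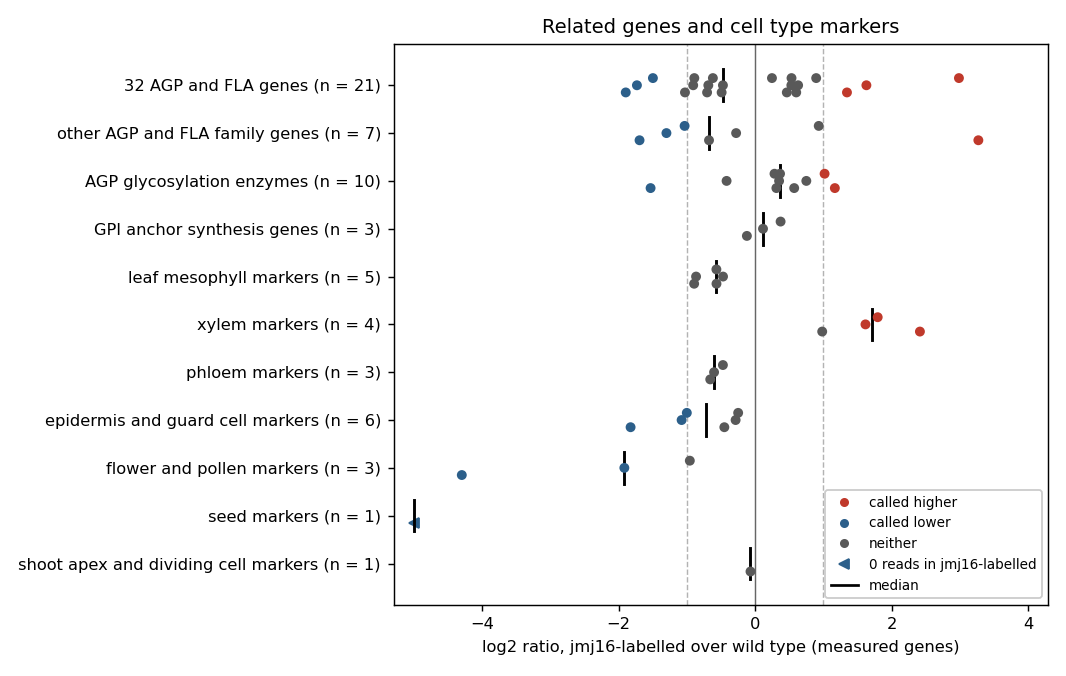
Log2 ratio, jmj16-labelled library over wild type, for the measured genes of each list, with 1 point per gene, a black bar at the median of the list and dashed lines at 2-fold. Xylem markers lie above 0, flower, pollen and seed markers below 0 (the triangle of CRA1, with 0 reads in the jmj16-labelled library, is set at the axis edge), and the 21 measured AGP and FLA genes spread over both sides.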

How the data were processed

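RNA-seq of 2 leaf libraries was analysed. The authors deposited, by transcript model, an estimated count of reads, unnormalized and in part fractional, in Salmon's layout per the file headers. The deposited tables also give TPM, scaled by effective transcript length and library total. Per the submitters' processing notes the tools were deepTools, Bowtie2, Salmon, TopHat2 and SAMtools and the genome build TAIR10, with no role stated. The sources used here do not give read layout, strandedness or annotation release. Reads shared by near-identical genes are divided by estimation, so counts of close paralogs are uncertain.

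Counts and TPM were summed per locus and the summed counts rounded to whole numbers. Libraries were scaled with TMM (edgeR 4.0.16, R 4.3.3, scaling only), and 0.5 was added to each count for the log2 ratio. Ratio intervals are exact Clopper-Pearson and count intervals exact Poisson, at 95%. They cover counting error only, and variation between plants or libraries is left out, since there is 1 library per genotype. Both treat reads as independent molecules, which reads are not, so the intervals may be too narrow even for counting error. No p-value is given. The calculation was tested on simulated Poisson counts, without variation between plants, and with known changes only in genes of at least 100 reads. Of the called members only AGP1 had that many, so recovery at the read numbers of the others was not tested. Gene names came from a RefSeq table of TAIR10.1, which matched all 32 members. Left out because that table lacks their name were 1 further family gene, 10 glycosylation genes and 2 GPI anchor genes. JMJ16 was taken as AT1G08620 from general knowledge.

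All 32 members were to be named, with JMJ16. In each further list up to 4 called genes were named, largest difference first, or the 2 with most reads where fewer than 2 were called. Member classes follow general knowledge. FLA3, CRU3, OLEO1, AP1, MGH3 and the P4H genes were named after their values were seen. So were the markers CAB2, LHCB2.1, GLDP1, SEOR1, CESA4, CESA7, AG, AP3, PI, ATML1, FDH and MYB60. Members and lists were chosen with earlier results of these data known. The alternatives were 13 planned settings and 2 added after the data were seen.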

Additional observations from a re-analysis of the deposited data

How the results depend on the processing

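AGP1 was called higher under every alternative except a fold of 4, and AGP5 under every one except a minimum of 100 reads, which it does not reach. Over all measured genes, 7.22% were called higher and 10.6% lower by the main rule, and 6.23% and 6.69% after the lowess length correction. No such share was worked out for the other settings, so their counts describe the members and lists alone. Members called higher and lower numbered 3 and 3, and several alternatives gave other counts. With a fold of 1.5 they were 5 higher and 7 lower, with AG peptides at 1 higher, FLAs at 4 lower, 3 higher glycosylation genes and 4 lower further family genes. With a fold of 4 they were 1 and 0, with FLAs at 0 and 0, glycosylation genes at 0 and 0 and 0 lower among the further family genes. With at least 100 reads they were 1 and 0, with FLAs at 0 and 0 and 0 lower in either of those lists. With no minimum 7 members were lower, among them 1 AG peptide, AGP24, 3 glycosylation genes were higher and 4 further family genes lower. With an interval wholly beyond 2-fold 2 members were higher and 1 lower, FLAs and glycosylation genes were at 0 and 0, and 0 further family genes were lower. With log2(TPM + 1) members were at 2 and 2, FLAs were at 0 and 0, glycosylation genes at 1 higher and 0 lower, and 1 further family gene was lower. With an added count of 5 there were 2 higher members, 0 higher FLAs, 1 higher glycosylation gene and 2 lower further family genes. Either length correction gave 4 lower members and 4 lower further family genes. From the most abundant transcript 2 glycosylation genes and 1 GPI anchor gene were lower. The cause of these changes was not tested. Scaling by median of ratios, total counts or upper quartile changed no member's call, but total counts left 2 further family genes lower in place of 3. The median log2 ratio of the members ran from -0.71 to 0.50 over the 13 alternatives, that of the AG peptides from -0.47 to 0.56, and that of the FLAs from -0.72 to -0.44. The log2 ratio of the summed TPM was 0.33, and 0.052 without AGP15. No paired analysis was possible because there is 1 library per genotype. Depth limits the values further: 11 of the 32 genes had at most 19 reads over both libraries.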

Other observations

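Of the 32 genes, 25 have a single transcript model and 7 have several. AGP9, AGP17, AGP18 and FLA1 had all their reads on 1 of their models in both libraries. For AGP16, the model AT2G46330.2 of 748 nt held 80.1% of the reads in the jmj16-labelled library and 76.8% in wild type. For FLA7, the model AT2G04780.2 of 1457 nt held 5.40 estimated reads in the jmj16-labelled library and 0 in wild type, so most of the FLA7 difference lies in AT2G04780.1, with 27.6 and 9 reads. AGP31 is the one member whose leading model differed between the libraries. Ordered by TPM among the 32 genes, AGP1 had rank 5 in the jmj16-labelled library and rank 12 in wild type, and AGP5 had rank 10 in the jmj16-labelled library and rank 29 in wild type.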
